A study of Mus musculus with 27 samples.

Results

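The nuclear-encoded genes of the mitochondrial respiratory chain were followed in the retinas of 27 mice. Members were the protein-coding genes whose symbols begin with Nduf followed by a, b, c, s or v (complex I), are Sdha, Sdhb, Sdhc or Sdhd (complex II), begin with Uqcr (complex III), begin with Cox4 to Cox8 (complex IV) or begin with Atp5 (complex V, the ATP synthase). Of 55487 genes in the count table, 107 had such a symbol, 94 of these were protein coding, and 3 of the 94 had no read in any library, which left 91 members. Complex I held 45 members, of which 8 were Ndufaf assembly factors and 37 were other Nduf genes. Complexes II, III, IV and V held 4, 8, 16 and 18. Complexes were assigned by symbol alone, so that Ndufa4 and Ndufa4l2 are counted to complex I in all sums and counts.

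Each library was made from 100 ng of retinal RNA of 1 mouse aged 9 months by 3′ mRNA sequencing, in which reads come from the 3′ end of a transcript, so that counts were not divided by gene length. There were 7 wildtype mice, 7 mice heterozygous for Gne (Gne+/-), 7 mice lacking C3 (C3-/-) and 6 mice with both alterations (Gne+/- C3-/-). Gne encodes the enzyme that opens sialic acid synthesis, and C3 encodes the central complement component. Sialic acid itself was not measured here. Libraries were sequenced in 2 runs, with 5, 5, 4 and 4 mice of these genotypes in run 1 and 2, 2, 3 and 2 in run 2. The design asks whether Gne haploinsufficiency alters the retina and whether loss of C3 modifies that, and the same question was put here to the respiratory chain genes.

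Complexes I to IV pass electrons from NADH and succinate to oxygen and, except for complex II, pump protons across the inner mitochondrial membrane, and complex V uses the returning protons to make ATP. Most subunits are encoded in the nucleus, translated in the cytosol and imported, and are joined in the membrane by a small set encoded in mitochondrial DNA. In the retina, photoreceptors pack their inner segments with mitochondria, and several complex IV subunits exist as paired genes with a form for most tissues and a form found mainly in heart and skeletal muscle, lung or testis.

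Total counts per library ran from 13528183 to 34170608. Levels are given as CPM, a count divided by the library total scaled by the trimmed mean of M values. Gne was at 99.2 to 162 CPM in wildtype and 33.9 to 56.7 CPM in Gne+/- libraries of run 1, and C3 was at most 3.6 CPM in every C3-/- or Gne+/- C3-/- library against at least 53.9 CPM in every other library, so both genes followed the labels. Bipolar cell markers summed to 2434 to 3763 CPM in run 1 and 2239 to 2816 CPM in run 2, and Mueller glia markers to 4700 to 7547 CPM and 2797 to 4021 CPM, so that retinal cell types were present in every library. Levels of 4 Y-linked genes were low in all 5 wildtype and high in all 4 C3-/- libraries of run 1, and the reverse held in run 2. Within a run, a difference of C3-/- from wildtype thus cannot be told apart from one in Y-linked level. Within run 2 the same holds for Gne+/- C3-/- (summed 246 to 283 CPM) against C3-/- (0.551 to 2.71 CPM). In run 1 the Gne+/- and Gne+/- C3-/- libraries held low and high Y-linked levels, from 0.0508 to 627 CPM and 0.565 to 591 CPM. With that level as a covariate edgeR called 0 members between genotypes, as without it, which does not show that the level has no part. Summed lens markers ran from 0.284 to 1183 CPM over the run 1 libraries, and in Gne+/- against wildtype 7 of 7 tested lens markers had a p under 0.05 with a median log2 difference of 3.87 and none was called; the part of lens RNA in the results was not tested.

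In wildtype retinas of run 1 the highest members were subunits of complexes V and IV. Atp5b, the catalytic beta subunit of the ATP synthase, was at 1320 ± 412 CPM (SD, n = 5), Atp5mpl, a small membrane subunit, at 1174 ± 232 CPM, Atp5a1, the alpha subunit, at 1090 ± 243 CPM, and Cox6c, a complex IV subunit, at 1008 ± 211 CPM. These 4 levels did not differ beyond their spread. The outermost 500 bases at the 3′ end of Cox6c lie wholly under the span of another gene, taken with introns and on either strand. Its counts may therefore be uncertain, which was not tested. In complex I the highest were Ndufc1 at 503 ± 148 CPM, Ndufa5 at 372 ± 134 CPM and Ndufb2 at 344 ± 85.1 CPM, all accessory subunits of the membrane or peripheral arm. In complex II, Sdha, the flavoprotein that oxidises succinate, was at 443 ± 63.2 CPM and stood above Sdhc, a membrane anchor, at 66.0 ± 35.5 CPM and Sdhb, the iron-sulfur subunit, at 51.7 ± 20.5 CPM. In complex III the highest were Uqcrh, the hinge protein, at 354 ± 68.3 CPM, Uqcrb at 318 ± 94.2 CPM and Uqcrq at 265 CPM. Over the 91 members the median of the wildtype means was 86.9 CPM, with 42 members over 100 CPM and 7 under 1 CPM.

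The order of levels was not the same in the second run. In the 2 wildtype libraries of run 2, Atp5g3, which encodes the c subunit of the rotor, was highest at 508 ± 168 CPM (SD, n = 2), followed by Cox8a at 375 ± 115 CPM, Atp5a1 at 370 ± 77.0 CPM and Atp5b at 370 ± 2.46 CPM. Cox8a, a complex IV subunit, had been at 2.42 ± 1.27 CPM (n = 5) in wildtype run 1 libraries. The Spearman correlation between the wildtype means of the 2 runs, across 91 genes that share libraries and are not independent, was 0.71 and is given as a description.

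Genes of the paired complex IV isoforms were at unequal levels. Cox7a2, the widely expressed form, was at 419 ± 78.8 CPM (SD, n = 5) in wildtype run 1 libraries, and Cox7a1, the heart and muscle form, at 20.6 ± 6.84 CPM. Cox7b was at 580 ± 142 CPM and its paralog Cox7b2 at 1.99 ± 1.49 CPM, Cox6b1 was at 58.3 ± 12.0 CPM and the testis form Cox6b2 at 9.52 ± 4.71 CPM, and Cox4i2, the lung form, was at 12.6 ± 4.17 CPM. Cox7a2l, a relative of Cox7a2 that takes part in joining complexes, was at 325 CPM and Ndufa4, first counted to complex I and now to complex IV, at 120 CPM. Cox8b, the heart and muscle form of subunit 8, was at 4.08 ± 2.26 CPM, and Cox8a at 2.42 CPM; in wildtype of run 2 Cox8b was listed at 0 and Cox8a was at 375 CPM. Of the 3 genes for the c subunit, Atp5g3 at 167 ± 108 CPM and Atp5g1 at 163 ± 62.2 CPM stood above Atp5g2 at 8.50 ± 2.37 CPM. Summed striated muscle markers were at 25.0 to 88.5 CPM in run 1 and 21.1 to 33.9 CPM in run 2; their part in the levels of the muscle forms was not tested.

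Some genes of the respiratory chain had no counts or few. Ndufa13, Cox4i1 and Cox6a2, which are not among the 91 members, were listed at 0 in all 27 libraries and the annotated span of each is covered to 100% by other genes. Spans were taken with introns and on either strand. Per the file headers, no option was set that would count a read lying over more than 1 gene. The 2 identifiers named Atp5o, a stalk subunit of the ATP synthase, overlap each other and were at 1.70 CPM or less in run 1. No direction is drawn from them. The part of overlap in the counts of these genes was not tested. Ndufa4l2, Cox8c and 1 of the 2 Atp5o identifiers stayed under the filter on low counts, with at most 0.676, 0.138 and 2.51 CPM in any library. The other 88 members were tested among 17409 genes.

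The stretches around the start of transcription were compared with those of all genes, because respiratory chain genes are known to be driven by nuclear respiratory factors. RefSeq windows of 300 bases (GRCm38.p6, 250 before to 50 after the start) were found for 75 of 90 member symbols. The letters CGCANGCGC of the NRF1 motif, searched on both strands, stood in 23 of the 75 (30.7%) and in 6.59% of 27025 promoters of all genes. For CCGGAAG, the core bound by ETS proteins such as the GA-binding protein, the shares were 22.7% and 9.12%, for AAGATGGC, the YY1 motif, 13.3% and 2.88%, and for TCAAGGTCA, the motif of the estrogen-related receptors, 2.67% and 0.407%. Member windows had a median GC content of 58.3% against 52.7% over all promoters; among windows between the members' GC quartiles, the NRF1 letters stood in 29.7% of member windows and 9.74% of all, the ETS letters in 21.6% and 14.4%, the YY1 letters in 18.9% and 4% and the estrogen-related receptor letters in 5.41% and 0.276%. NRF1 letters were found in 11 of 39 windows of complex I, 2 of 3 of complex II, 3 of 5 of complex III, 1 of 13 of complex IV and 6 of 15 of complex V, and the YY1 letters in 8 of 39 of complex I and in no window of complexes II, III and IV. The estrogen-related receptor letters stood in 2 member windows, those of Sdhd and Atp5g3. The NRF1 and ETS letters hold a C followed by a G (CpG). Member windows had a median of 20 CpG, against 7 over all promoters. The comparison between quartiles was set by GC content and not by CpG, and the part of CpG in these shares was not tested. A match is a description of these letters and not a bound site.

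The windows of 4 members that hold motifs of more than 1 kind are shown, chosen as the member with the smallest p between genotypes, a member with 3 kinds, a member with both NRF1 and YY1, and the highest member of run 2. They lie at chr5:115348909-115349208 (Cox6a1), chr9:50603800-50604099 (Sdhd), chr13:73328433-73328732 (Ndufs6) and chr2:73911277-73911576 (Atp5g3), all on the minus strand of GRCm38.p6, and are written 5′ to 3′ on the strand of the gene with motif letters in capitals.
Cox6a1: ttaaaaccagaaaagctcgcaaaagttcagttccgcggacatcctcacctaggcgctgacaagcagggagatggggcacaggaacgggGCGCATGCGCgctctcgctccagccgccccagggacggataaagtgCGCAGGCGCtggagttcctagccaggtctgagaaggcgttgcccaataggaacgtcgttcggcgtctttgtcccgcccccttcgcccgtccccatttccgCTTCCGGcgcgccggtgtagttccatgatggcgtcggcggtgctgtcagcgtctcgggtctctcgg
Sdhd: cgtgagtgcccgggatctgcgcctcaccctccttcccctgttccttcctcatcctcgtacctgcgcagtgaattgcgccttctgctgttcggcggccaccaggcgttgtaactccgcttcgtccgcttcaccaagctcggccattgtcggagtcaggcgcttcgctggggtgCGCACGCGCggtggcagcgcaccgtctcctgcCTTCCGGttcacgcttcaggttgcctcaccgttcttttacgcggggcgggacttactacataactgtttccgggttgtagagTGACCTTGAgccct
Ndufs6: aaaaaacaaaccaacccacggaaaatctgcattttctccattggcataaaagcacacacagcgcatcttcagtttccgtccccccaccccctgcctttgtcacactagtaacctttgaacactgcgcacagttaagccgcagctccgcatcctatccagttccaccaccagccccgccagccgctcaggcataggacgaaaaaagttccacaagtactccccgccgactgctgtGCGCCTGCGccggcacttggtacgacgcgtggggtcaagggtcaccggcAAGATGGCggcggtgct
Atp5g3: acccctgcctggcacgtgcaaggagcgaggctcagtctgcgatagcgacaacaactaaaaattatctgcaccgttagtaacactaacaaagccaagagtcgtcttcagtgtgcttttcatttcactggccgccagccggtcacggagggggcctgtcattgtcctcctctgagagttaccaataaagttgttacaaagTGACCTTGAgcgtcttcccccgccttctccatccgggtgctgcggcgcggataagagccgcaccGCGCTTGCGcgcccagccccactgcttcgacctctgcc
In Cox6a1 the capitals mark 3 NRF1 matches, of which 2 overlap, and 1 ETS match. In Sdhd they mark NRF1, ETS and estrogen-related receptor letters in this order, in Ndufs6 NRF1 and then YY1, and in Atp5g3 estrogen-related receptor and then NRF1 letters.

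Summed over all members, the respiratory chain genes made up a larger share of the counts in run 1 than in run 2. The sum was 13449 to 17153 CPM (1.34% to 1.72% of the scaled library) over 18 libraries of run 1 and 6926 to 8750 CPM (0.693% to 0.875%) over 9 libraries of run 2, and no library of one run reached the other. The same separation held for each complex, with run 2 means at 0.613 of run 1 for complex I, 0.692 for complex II, 0.595 for complex III, 0.566 for complex IV and 0.414 for complex V. Within complex II only Sdha was lower, with a median of 430 CPM in run 1 and 216 CPM in run 2. Sdhb (63.7 and 71.3 CPM), Sdhc (63.7 and 103 CPM) and Sdhd (0 and 8.56 CPM) had higher medians in run 2. In run 1 the ranges of the 4 genotypes overlapped for every complex. In run 2 the 2 Gne+/- libraries had the lowest sums of all members, 6926 and 7855 CPM, beside 8233 and 8750 CPM in wildtype, 7976 to 8722 CPM in C3-/- and 7889 and 8378 CPM in Gne+/- C3-/-. For complex II, Gne+/- at 353 and 355 CPM lay below every other library of run 2, which ran from 375 to 416 CPM. For complex V, Gne+/- was at 2062 and 1897 CPM, below wildtype at 2539 and 2284 CPM and C3-/- at 2189 to 2408 CPM, and overlapped Gne+/- C3-/- at 2242 and 2059 CPM. Sums were not tested. In bulk tissue, fewer cells of a type and less RNA per cell cannot be told apart.

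**Figure D1:**
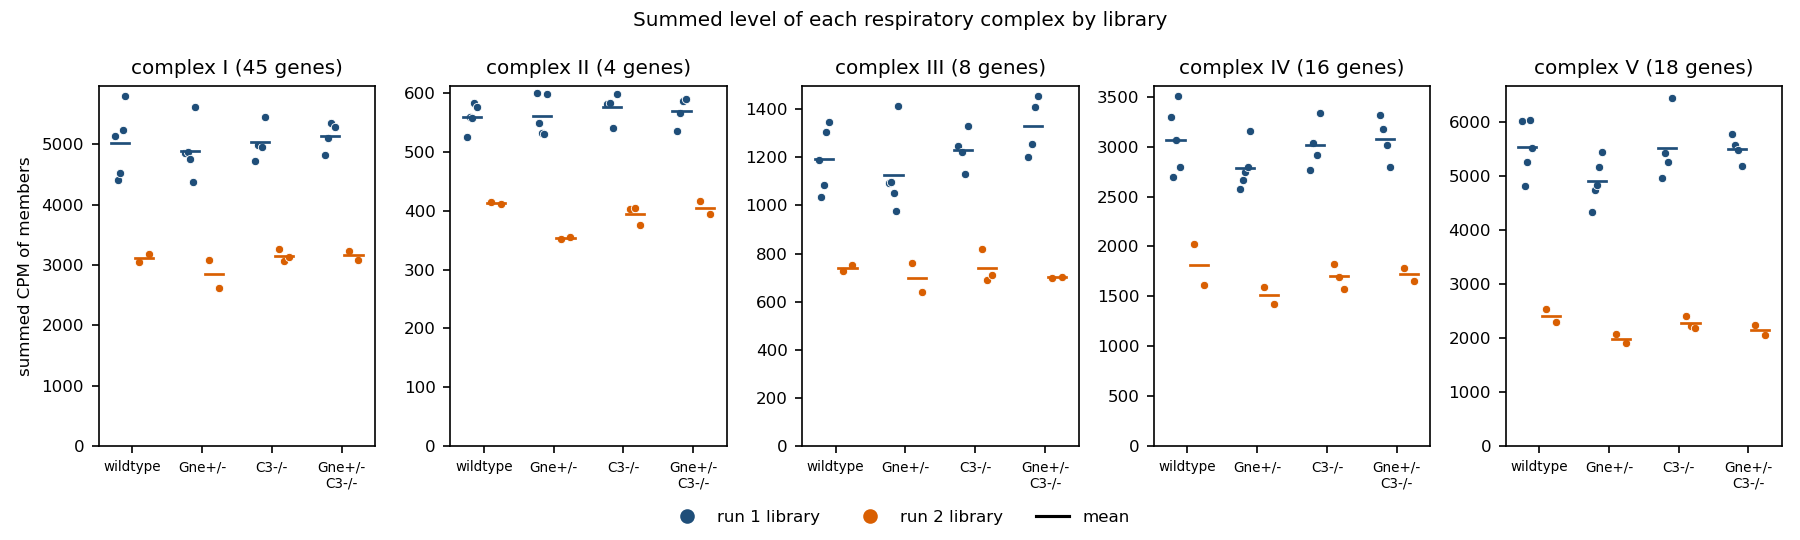
Summed CPM of the members of each complex (vertical axis, from 0) in each of the 27 libraries by genotype (horizontal axis), with run 1 in blue, run 2 in orange and lines at group means. In every complex the run 1 libraries lie above all run 2 libraries, and the genotypes of run 1 overlap.

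Gne heterozygosity on a wildtype background was not accompanied by a called difference in any respiratory chain gene. With genotype and run in one edgeR quasi-likelihood fit over all 27 libraries and Benjamini-Hochberg adjustment at 0.05, 0 of 88 members were called, beside 0.00574% of all genes; 7 members had an unadjusted p under 0.05, and DESeq2 and limma-voom each called 0. The 7 members under 0.05 were 7.95% of those tested, beside 5.76% of all genes. Without the filter on low counts edgeR called 1 member, Ndufb3, beside 0.244% of the 29460 genes of that fit. The median log2 difference of the members was -0.02, with 42 of 88 above 0, against 0.01 over all genes; scaled by total counts alone the medians were 0.04 and 0.06. Members with the smallest p were the ATP synthase subunits Atp5mpl and Atp5a1, Sdhb of complex II, Ndufb2 and Ndufa7 of complex I and Cox7b and Cox5b of complex IV, 5 of them lower and 2 (Sdhb and Ndufa7) higher in Gne+/-.

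Atp5mpl (ENSMUSG00000021290, chr12:111961375-111966977, minus strand) had the smallest of these p-values. In run 1 it was at 1281, 886, 1009, 1477 and 1215 CPM in wildtype and at 591, 763, 798, 976 and 1266 CPM in Gne+/-, and in run 2 at 173 and 166 CPM against 142 and 95.4 CPM. Gne+/- values were lower on average in both runs, and the groups overlapped in run 1. The log2 difference was -0.44 (SE 0.141), with an edgeR p of 0.0035 and an adjusted p of 0.834. Sdhb (ENSMUSG00000009863, chr4:140961203-140979193, plus strand) was at 49.9, 84.2, 52.3, 44.0 and 28.0 CPM in wildtype and 130, 88.3, 84.5, 76.7 and 47.2 CPM in Gne+/- of run 1, with a log2 difference of 0.72 (SE 0.232) and an adjusted p of 0.661 by edgeR within that run. In run 2 Sdhb was at 68.0 and 71.3 CPM in wildtype and 62.7 and 70.1 CPM in Gne+/-, and these overlapped.

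Between Gne+/- and wildtype, 0 of 88 members were called within run 1 (0.00574% of all genes called), where 8 had an unadjusted p under 0.05, and 0 within run 2 (0.0172% of all genes called), where 4 did; the test of the difference between the runs also called 0 (0.0115% of all genes called), with 4 under 0.05 before adjustment. The shares under an unadjusted p of 0.05 were 9.09%, 4.55% and 4.55% of the members and 6.94%, 4.27% and 4.53% of all genes. Without the filter on low counts edgeR called 4, 1 and 1 members, beside 0.431%, 0.0577% and 0.102% of all genes. By limma-voom the count was 0 in each, and by DESeq2 it was 0 within run 1 (0.126% of all genes), 0 for the difference (0.0804%) and 1 within run 2, where DESeq2 called 0.121% of all genes. That 1 was Cox8b, which had 0 counts in both wildtype libraries of run 2 and 16 and 92 counts in Gne+/- (adjusted p of 0.393 by edgeR). In run 1, Cox8b was at 1.01 to 7.38 CPM in wildtype and 2.10 to 15.5 CPM in Gne+/-, and these ranges overlapped. The median log2 difference of the members was -0.01 within run 1 and -0.18 within run 2, where 20 of 88 were above 0 against 49.4% of all genes.

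Loss of C3 was likewise without a called member. Of 88 members 0 were called in C3-/- against wildtype, beside 0.167% of all genes, with 2 under an unadjusted p of 0.05 and 0 by DESeq2 and by limma-voom. The 2 members under 0.05 were 2.27% of those tested, beside 4.49% of all genes. Without the filter on low counts edgeR called 1 member, Cox8a, beside 0.309% of all genes in that fit. The median log2 difference was 0.06, and 59 of 88 members lay above 0. The 2 were Ndufs1, the large iron-sulfur subunit of the complex I arm that takes up electrons, and Cox7b, and the smallest p among higher members belonged to Cox4i2, at a log2 difference of 0.54 (SE 0.278) and an adjusted p of 0.999 by edgeR.

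Ndufs1 (ENSMUSG00000025968, chr1:63143596-63176833, minus strand) was at 73.7, 30.9, 46.3, 50.4 and 79.7 CPM in wildtype and 36.6, 45.5, 25.0 and 43.8 CPM in C3-/- of run 1. In run 2 it was at 64.0 and 74.8 CPM in wildtype and 62.3, 63.1 and 79.3 CPM in C3-/-. Values overlapped in both runs. The log2 difference over both was -0.40 (SE 0.182), with an edgeR p of 0.0365 and an adjusted p of 0.999. The spans of other genes cover all of the outermost 500 bases at the 3′ end of Ndufs1, so its counts may be uncertain, which was not tested.

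Separately by run, C3-/- against wildtype gave 0 of 88 members in run 1 (0.224% of all genes called), 0 in run 2 (0.0574% of all genes called) and 0 for the difference between runs (0.0172% of all genes called), with 6, 2 and 3 members under an unadjusted p of 0.05. These were 6.82%, 2.27% and 3.41% of the members, beside 5.73%, 4% and 4.22% of all genes. In each run these genotypes also differed in the level of the Y-linked genes, and the 2 cannot be told apart there. Without the filter on low counts the members called were 3, 1 and 2, beside 0.465%, 0.0883% and 0.119% of all genes. By limma-voom the counts were 0 throughout, and by DESeq2 they were 0, 1 and 0, beside 0.511%, 0.167% and 0.144% of all genes. The 1 was again Cox8b, with 26, 18 and 27 counts in the C3-/- libraries of run 2 beside 0 in both of wildtype (adjusted p of 0.359 by edgeR). Without the library of wildtype mouse 8, the edgeR log2 difference of Ndufa9 within run 2 was 1.94 in Gne+/- and 2.03 in C3-/- against wildtype. With all libraries these were 0.293 and 0.386. Ndufa9 was at 5.36 CPM in wildtype mouse 7 and 28.2 CPM in mouse 8. The fit without mouse 8 leaves 1 wildtype library in run 2, which is assumed to vary like the other groups. In run 1 the member with the smallest p was Ndufb6, a complex I subunit with 0 or 1 count in each wildtype library and 18, 0, 5 and 0 counts in C3-/-.

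On the background without C3, Gne heterozygosity was again without a called member. In Gne+/- C3-/- against C3-/-, 0 of 88 members were called (0.00574% of all genes), and 0 had an edgeR p under 0.05, against 1.35% of all genes, while DESeq2 and limma-voom called 0. The median log2 difference was 0.01. Ndufb5, a membrane-arm subunit of complex I, had the smallest p, at a log2 difference of 0.25 (SE 0.128, adjusted p of 1 by edgeR). Within run 1 (0.00574% of all genes called), within run 2 (0.00574% of all genes called) and for the difference between runs (0% of all genes called) 0 members were called by edgeR, DESeq2 and limma-voom, with 1, 3 and 2 members under an unadjusted p of 0.05. The shares under 0.05 were 1.14%, 3.41% and 2.27% of the members and 2.03%, 2.77% and 2.43% of all genes. Within run 2 these genotypes also differed in the level of the Y-linked genes, and the 2 cannot be told apart there. The test of whether the Gne difference was altered by the absence of C3 called 0 members (0% of all genes called). DESeq2 and limma-voom also called 0. Before adjustment 4 members were under 0.05 by edgeR, or 4.55%, beside 3.18% of all genes. Those 4 were Ndufs1, Cox7b, Atp5mpl and Cox5b, each with a positive estimate, and for Ndufs1 the estimate was 0.65 (SE 0.259, adjusted p of 1 by edgeR).

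Animals with both alterations were also compared with Gne+/- alone, and 0 of 88 members were called by edgeR (0.19% of all genes). Unadjusted, 7 members had a p under 0.05, DESeq2 and limma-voom called 0, and the median log2 difference was 0.11 with 63 of 88 members above 0, against 49.3% of all genes. The 7 were Cox6a1 and Cox5b of complex IV and Ndufs6, Ndufa3, Ndufs7, Ndufb9 and Ndufb3 of complex I, all with higher estimates in Gne+/- C3-/- except Ndufb3. These 7 were 7.95% of the members tested, beside 6.4% of all genes. Without the filter on low counts edgeR called 3 members, Ndufb3, Ndufa1 and Cox7c, beside 1.04% of all genes in that fit.

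Cox6a1 (ENSMUSG00000041697, chr5:115345642-115348981, minus strand), the widely expressed form of complex IV subunit 6A, was the member whose groups did not overlap in either run. It was at 323, 311, 283, 245 and 257 CPM in Gne+/- and 343, 356, 413 and 390 CPM in Gne+/- C3-/- of run 1. In run 2 it was at 160 and 148 CPM in Gne+/- and 194 and 184 CPM in Gne+/- C3-/-. Every library with both alterations was thus above every Gne+/- library of its run, and the log2 difference was 0.37 (SE 0.112), with an edgeR p of 0.00241 and an adjusted p of 0.372. Wildtype libraries were at 210 to 332 CPM in run 1 and C3-/- libraries at 316 to 344 CPM. In run 2 wildtype libraries were at 193 and 195 CPM and C3-/- libraries at 218, 158 and 155 CPM, and both of these ranges overlapped that of Gne+/- C3-/-. With 2 libraries a group in run 2, 34 of 91 members did not overlap between Gne+/- and Gne+/- C3-/-, or 38.6% of the 88 tested, beside 36.2% of all genes tested. In run 1 Cox6a1 alone did not, or 1.14% of the members tested, beside 2.4% of all genes tested.

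Ndufs6, a complex I subunit with a zinc site, was at 42.5, 36.0, 24.3, 22.3 and 31.5 CPM in Gne+/- and 34.4, 43.3, 56.6 and 67.8 CPM in Gne+/- C3-/- of run 1 (ENSMUSG00000021606, chr13:73319838-73328542, minus strand). In run 2 it was at 60.7 and 55.3 CPM against 83.9 and 71.2 CPM. The groups overlapped in run 1 and not in run 2, and the log2 difference was 0.60 (SE 0.201, adjusted p of 0.526 by edgeR). Cox5b, a zinc-binding subunit of complex IV, had a log2 difference of 0.39 (SE 0.148, adjusted p of 0.665 by edgeR).

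**Figure D2:**
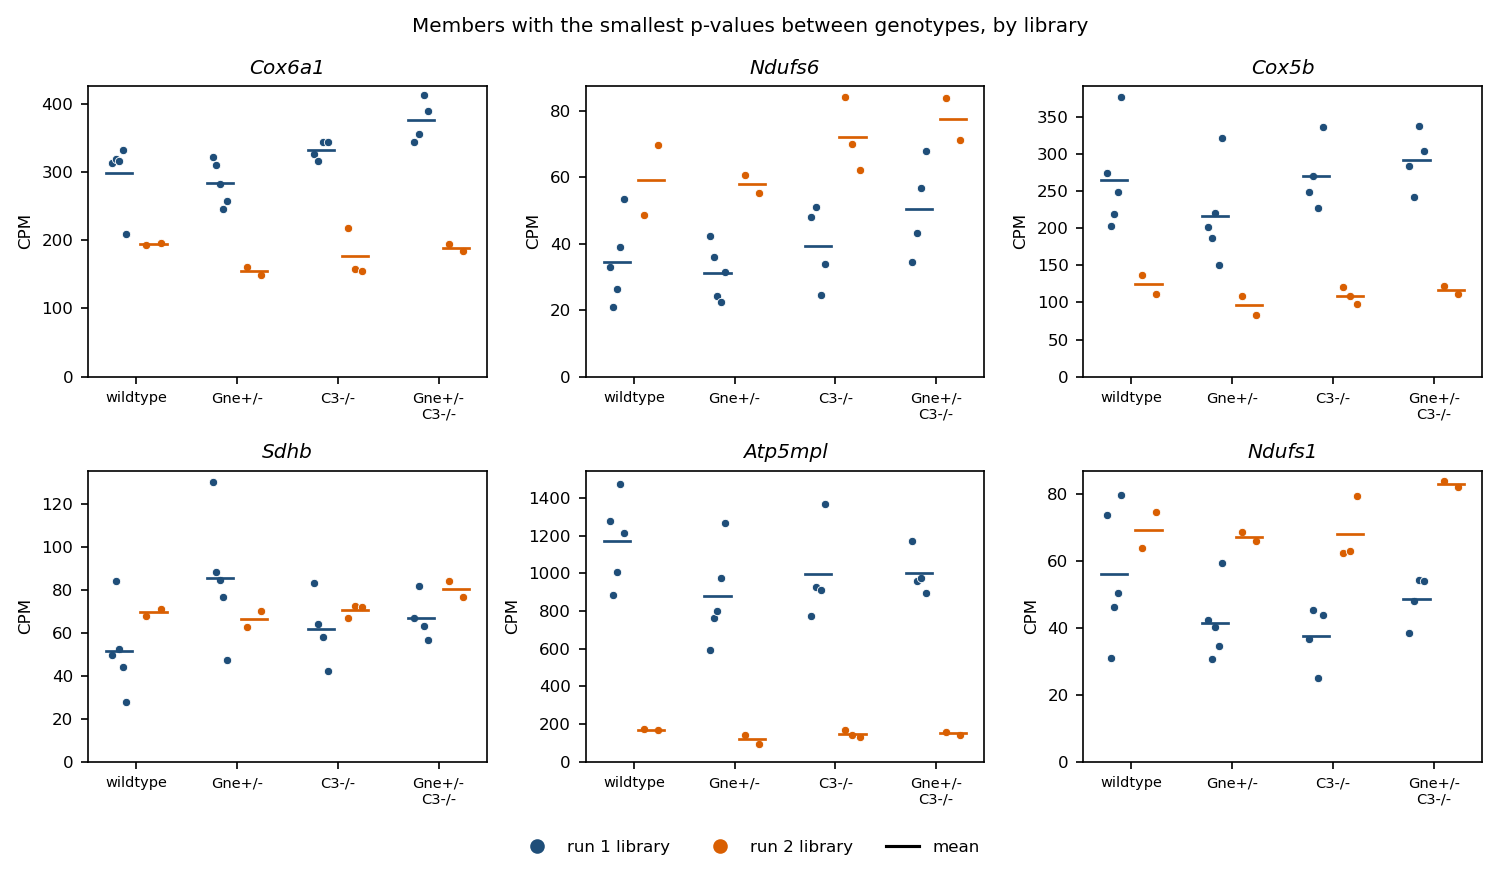
CPM (vertical axes, from 0) of 6 members with small unadjusted p-values between genotypes, in each library by genotype, with run 1 in blue, run 2 in orange and lines at means. For Cox6a1 all Gne+/- C3-/- libraries (343 to 413 CPM in run 1) lie above all Gne+/- libraries (245 to 323 CPM) of their run; in the other panels these 2 groups overlap in run 1.

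Within run 1, this comparison was the one in which the tools parted. The edgeR fit called 0 of 88 members (0.27% of all genes called) with 9 under an unadjusted p of 0.05, and DESeq2 called 0, whereas limma-voom with library quality weights called 26, of which 20 were higher and 6 lower in Gne+/- C3-/-. The 9 under 0.05 by edgeR were 10.2% of the members tested, beside 7.68% of all genes. The 26 were 29.5% of the members tested, beside 1905 genes, or 10.9%, of all genes called by limma-voom. Those higher included Cox5b, Uqcrh, Cox6a1, Ndufs6, Uqcrq and Ndufv1, and those lower were Ndufb3, Cox7c, Ndufaf5, Ndufc2, Atp5s and Sdhc. In that fit Gne+/- mouse 5 had the lowest library weight, 0.251, and Gne+/- C3-/- mouse 5 the highest, 2.83. Of these genes, Ndufb3, Cox7c, Ndufaf5 and Ndufc2 were lowest, and Cox5b, Uqcrh and Uqcrq highest, in the same 5 run 1 libraries. Those were wildtype mouse 6, Gne+/- mouse 5, C3-/- mouse 6 and Gne+/- C3-/- mice 5 and 6, so every genotype held such a library. The part of the weights and of these libraries in the calls was not tested. For Ndufb3 the limma-voom log2 difference was -2.64 (SE 0.641, adjusted p of 0.0143) and the edgeR one -1.80 with an adjusted p of 0.607. Within run 2 (0.046% of all genes called) and for the difference between runs (0.00574% of all genes called), 0 members were called by edgeR, DESeq2 and limma-voom. By edgeR 2 and 0 were under an unadjusted p of 0.05, or 2.27% and 0% of the members, beside 4.11% and 4.15% of all genes.

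Mice with both alterations did not differ from wildtype in any member past the threshold either. Of 88 members 0 were called (0.155% of all genes), by DESeq2 and limma-voom as well, and 6 had an unadjusted p under 0.05 by edgeR. The 6 were Ndufs6, Ndufb9, Ndufa3, Ndufa2, Ndufa7 and Ndufb10, all of complex I and all with higher estimates in Gne+/- C3-/-. They were 6.82% of the members tested, beside 4.96% of all genes, and complex I held 44 of the 88 members tested. Without the filter on low counts edgeR called 1 member, Ndufb3, beside 0.401% of all genes in that fit. For Ndufs6 the log2 difference was 0.50 (SE 0.201, adjusted p of 0.857 by edgeR).

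How closely each difference was estimated is given by the intervals, which are not adjusted for the number of genes tested. They do not give the difference that would have passed the threshold. The median standard error of the log2 difference was 0.18 to 0.19 in the 5 comparisons of 2 genotypes, and the 95% interval lay within a 2-fold change in either direction for 71 to 75 of 88 members. It lay within 1.5-fold for 41 to 52. In each comparison, 11 members had a standard error over 0.5, and their intervals reached past a 2-fold change. The comparisons share libraries and are not independent of each other.

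**Figure D3:**
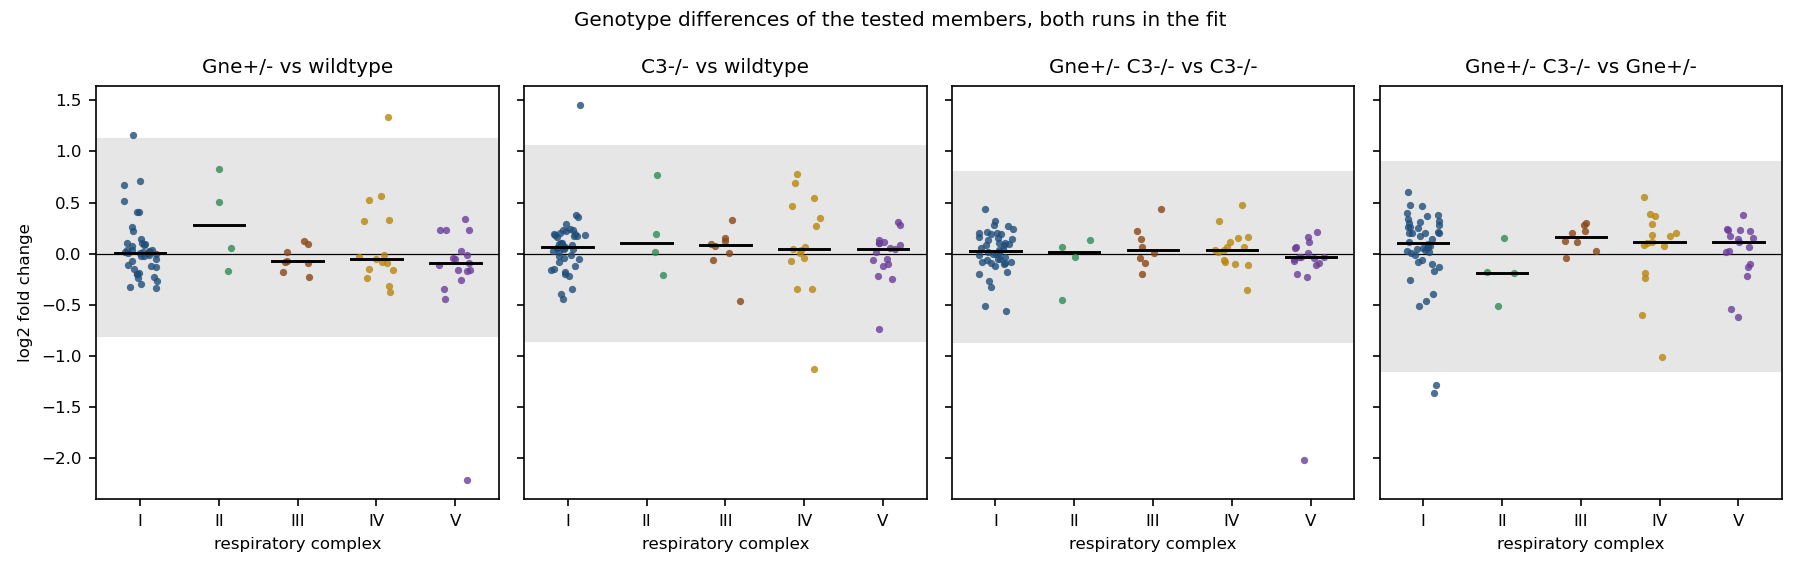
Log2 fold change (vertical axis) of each of the 88 tested members in 4 genotype comparisons by complex (horizontal axis), from the fit with genotype and run; black lines are medians of a complex and the grey band spans the 5th to 95th percentile of all 17409 genes. No point passed the threshold, and the points below -2 in the panels of Gne+/- against wildtype and of Gne+/- C3-/- against C3-/- are an Atp5o identifier with at most 44 counts in a library.

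Between the sequencing runs most members differed. Of 88 members 27 were higher and 47 lower in run 2, together 84.1%, beside 59.5% of all genes called, 30.3% higher and 29.2% lower; the median log2 difference was -0.53 for the members and 0.04 for all genes, and scaled by total counts alone these were -0.33 and 0.24. By complex, 15 were higher and 24 lower of 44 in complex I, 2 and 1 of 4 in complex II, 2 and 4 of 8 in complex III, 4 and 8 of 15 in complex IV and 4 and 10 of 17 in complex V. The mice of the runs were different animals, and anything else that differed between the runs cannot be told apart from the sequencing.

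Among the lower members, Ndufb2 (ENSMUSG00000002416, chr6:39592574-39603382, plus strand) was at 207 to 461 CPM with a median of 286 in run 1 and at 33.5 to 47.2 CPM with a median of 41.6 in run 2, a log2 difference of -2.84 (SE 0.117, adjusted p of 8.36e-20 by edgeR). Atp5mpl fell by 2.80 on the log2 scale, Ndufs3, a core subunit of complex I, by 2.71, Cox7b by 2.60, Ndufb4 by 2.58 and Cox6c by 1.98. For all 6 of these members every run 1 library lay above every run 2 library. Of the 6, Cox6c has its outermost 500 bases at the 3′ end wholly under another gene. In all, 26 members were higher in every library of run 1 than in any of run 2, 12 were higher in every library of run 2, and 53 overlapped. The 26 were 29.5% of the members tested, beside 10.6% of all genes tested, and the 12 were 13.6%, beside 11.3%.

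Among the higher members several were close to 0 in run 1. Ndufb8, a membrane-arm subunit of complex I, had 0 counts in all 18 run 1 libraries and 130 to 224 counts in each of the 9 run 2 libraries, at least 726-fold higher against a floor of 3 counts over all run 1 libraries. Sdhd, a membrane anchor of complex II, was at 0 to 0.185 CPM in run 1 and 2.80 to 12.3 CPM in run 2 (log2 difference 7.31, SE 0.523, adjusted p of 4.78e-14 by edgeR). Cox8a (ENSMUSG00000035885, chr19:7215153-7217616, minus strand) was at 0.511 to 9.39 CPM in run 1 and 263 to 456 CPM in run 2 (log2 difference 6.25, SE 0.364, adjusted p of 3.45e-13 by edgeR). Uqcrc2, a core protein of complex III, was at 0 to 5.58 CPM and then 14.3 to 57.3 CPM, and Atp5j, a coupling subunit of the ATP synthase, at 2.95 to 20.3 CPM and then 34.3 to 58.9 CPM. Ndufb8 and Uqcrc2 have their outermost 500 bases at the 3′ end wholly under another gene, while Sdhd and Cox8a have no other gene over them.

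**Figure D4:**
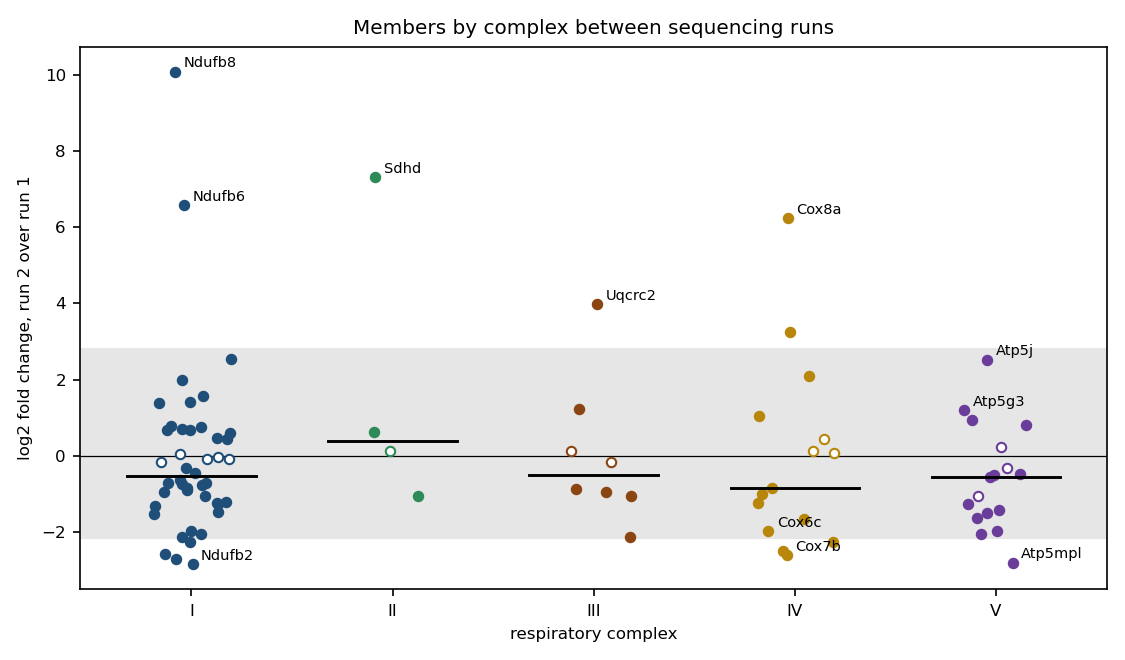
Log2 fold change of run 2 over run 1 (vertical axis) for the 88 tested members by complex (horizontal axis); filled points passed an adjusted p of 0.05, open points did not, black lines are medians and the grey band spans the 5th to 95th percentile of all genes. Of the 88 points 74 are filled, 47 of them below 0; the value for Ndufb8 is a fitted one for a gene at 0 in run 1 and depends on the model's prior.

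The overlap of members with other genes was set beside the run difference. The 7 tested members whose outermost 500 bases at the 3′ end lay wholly under another gene had a median log2 difference of 0.67, with 4 called higher and 1 lower, and the 81 others one of -0.63, with 23 called higher and 46 lower. Over the tested genes with a coding transcript the medians were 0.66 for 1555 such genes and -0.02 for 12828 others. Across the 88 members, the Spearman correlation of the run difference with the covered share was 0.21, with transcript length -0.14 and with GC content 0.02, given as descriptions of genes that share libraries. Their part in the run difference was not tested.

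Within run 1 some members varied together from mouse to mouse. Ndufa1, Ndufb3 and Ndufc2, accessory subunits of complex I, the complex I assembly factor Ndufaf5 and Cox7c of complex IV had the 5 largest spreads among members with a median of at least 10 CPM in that run. Ndufb3 (ENSMUSG00000026032, chr1:58586384-58595964, plus strand) was at 26.7, 129, 42.6, 18.6 and 9.82 CPM in wildtype, 143, 156, 65.6, 72.6 and 8.02 CPM in Gne+/-, 36.2, 20.1, 35.6 and 6.83 CPM in C3-/- and 38.8, 43.2, 11.7 and 8.40 CPM in Gne+/- C3-/-. All genotypes held a low library, and the highest were wildtype mouse 2 and Gne+/- mice 1 and 2. Cox7c ran from 11.2 to 211 CPM, Ndufa1 from 1.62 to 70.7 CPM, Ndufc2 from 57 to 337 CPM and Ndufaf5 from 25.8 to 156 CPM. The same 5 libraries, namely wildtype 6, Gne+/- 5, C3-/- 6 and Gne+/- C3-/- 5 and 6, were the lowest 5 of 18 in Ndufb3, Cox7c, Ndufc2 and Ndufaf5, and 4 of them were among the lowest 5 in Ndufa1.

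Some members, among them Cox5b, Uqcrh and Uqcrq, were higher in the 5 libraries lowest in Ndufb3 than in any other run 1 library. Cox5b was at 304 to 377 CPM there and at 284 CPM or less in the others. Uqcrq was at 329 to 426 CPM there and at 324 CPM or less in the others. Further members were steady across the run 1 libraries. Ndufaf2, an assembly factor, had the smallest spread among members with a median of at least 10 CPM (SD of log2 0.15, 119 to 168 CPM), followed by Uqcrfs1, the Rieske iron-sulfur protein of complex III (0.16, 69.1 to 103 CPM), Cox6a1 (0.18), Ndufs4 (0.18) and Sdha (0.18, 350 to 521 CPM). The spans of other genes cover all of the outermost 500 bases at the 3′ end of Ndufaf2, so its counts may be uncertain, which was not tested. Wide spread did not always go with the order of Ndufb3. Among the 10 widest members, the lowest 5 libraries of Ndufb11, Ndufs8 and Uqcrc1 each held 1 of the 5 lowest in Ndufb3. Those of Atp5g3 held 3, those of Ndufa8 held 4, and those of Ndufb4, among the narrowest members, also held 4. The cause of the spread was not tested. In run 2 Ndufb3, at 113 to 212 CPM, and Cox7c, at 180 to 279 CPM, varied less. The median SD of log2 over members was 0.23 against 0.39 in run 1.

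**Figure D5:**
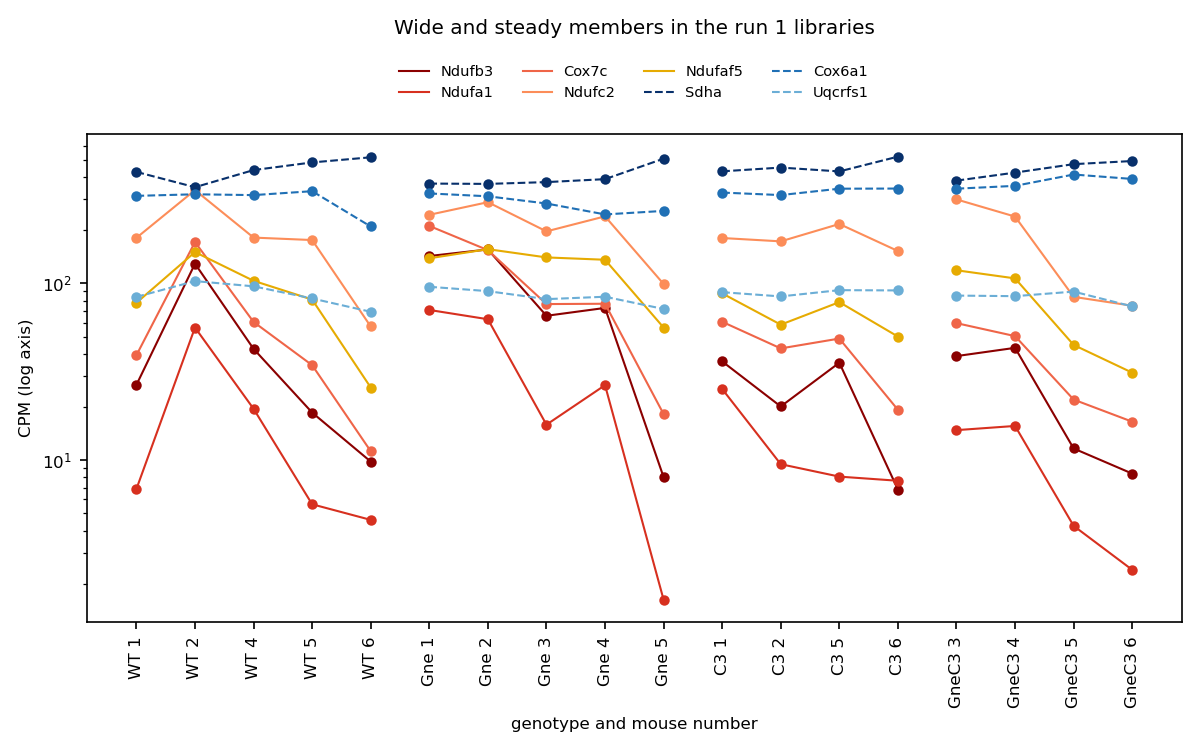
CPM on a log axis of 5 members with wide spread (warm colours, solid) and 3 with narrow spread (blue, dashed) in the 18 libraries of run 1, named by genotype and mouse number; lines join libraries of a genotype, which have no order. The 5 libraries where Ndufb3 is lowest (6.83 to 11.7 CPM) are also the lowest 5 in Cox7c, Ndufc2 and Ndufaf5.

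Of the cell type markers, 0 were called by edgeR in the 6 genotype comparisons for any of 9 lists. Between the runs, 1 of 6 bipolar cell markers was higher in run 2 and 5 lower, and the counts were 2 and 4 of 6 Mueller glia, 0 and 1 of 5 microglia, 0 and 0 of 7 lens, 0 and 3 of 6 pigment epithelium, 0 and 1 of 6 striated muscle, 0 and 2 of 7 smooth muscle and pericyte, 0 and 2 of 6 fibroblast and sclera, and 2 and 1 of 4 erythrocyte markers. Over all genes 30.3% were higher in run 2 and 29.2% lower. The part of the markers in the run difference of the respiratory chain genes was not tested.

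Genes that work with the respiratory chain outside these symbols also showed 0 called members between genotypes by edgeR in all 6 comparisons. Of 13 subunits encoded in mitochondrial DNA 8 were tested, and their median log2 difference was -0.25 in Gne+/- against wildtype and 0.26 in Gne+/- C3-/- against Gne+/-, each with 1 gene under an unadjusted p of 0.05. Of 34 assembly factors tested, 7 had an unadjusted p under 0.05 in Gne+/- C3-/- against Gne+/- (median log2 difference 0.10). Over all genes the share with such a p was 6.4% in this comparison and 5.76% in Gne+/- against wildtype. Between the runs, 3 mitochondrially encoded subunits were higher in run 2 and 3 lower, 7 assembly factors were higher and 20 lower, and of 17 electron carriers and related dehydrogenases 3 were higher and 9 lower. Of 14 regulators of mitochondrial biogenesis, 7 were higher, among them Nrf1 (log2 difference 1.38), Esrra (0.89) and Ppargc1a, the coactivator PGC-1 alpha (0.75), and 3 lower, namely Mtor, Pprc1 and Yy1. The citric acid cycle had 3 of 13 higher and 7 lower, and glycolysis 7 of 17 higher and 5 lower. Beside these lists, 30.3% of all genes were higher in run 2 and 29.2% lower.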

How the data were processed

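Retinal 3′ mRNA libraries of 27 mice were analysed. Gene counts were deposited by the authors as whole reads per gene, not normalized; per the submitters' processing notes the aligner was STAR 2.7.3a and the counter featureCounts of Subread 2.0.0 (2.0.3 per the file headers), on GRCm38 with Ensembl release 101. The 27 single-library files equal the joint table. Biotypes, coordinates and overlaps came from the annotation of the same build.

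From these counts, genes passing edgeR's filter (minimum count 10) were scaled by TMM and tested with edgeR 4.0.16's quasi-likelihood test (R 4.3.3), with genotype and run as terms (22 residual degrees of freedom) or with 8 genotype-by-run groups (19); adjusted p-values (Benjamini-Hochberg, threshold 0.05) ran over all 17409 genes tested. The common biological coefficient of variation was 55.1%. The labels do not say which mice were littermates. CPM in the text are TMM-scaled. The script was tested on simulated data. One marker gene and the list that holds it are not reported here. Alternatives were DESeq2 1.42.0, limma 3.58.1 (voom with quality weights), other scalings and filters, a Y-linked covariate, a mouse-number block and leaving out each library.

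Members, the 9 marker and 6 pathway lists and all tests were chosen with earlier results of these data known. Named genes were, by rule, the highest and lowest members per complex in wildtype, isoform genes, up to 3 members with the smallest p per direction and genotype comparison, up to 6 per direction between runs, and members at 0 or under the filter. Others named were chosen after their values were seen. They were Ndufa1, Ndufb3, Cox7c, Ndufc2, Ndufaf5, Ndufaf2, Uqcrfs1, Ndufs4, Ndufa9, Ndufb11, Uqcrc1, Ndufa8 and the members called by 1 tool.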

Additional observations from a re-analysis of the deposited data

Results flagged for a closer look

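In 211 groups of 4 or 5 libraries of run 1, 18 (8.53%) held a library far from the rest of its group by Dixon's ratio. The groups covered summed levels and the 53 members named by rule, where the group mean was at least 1 CPM. Chance flags about 1 in 20 groups. Some of these members were chosen by their p-values, so the share does not stand for all members. In Gne+/- the library of mouse 5 stood high for Atp5a1 (1280 CPM, next 861), Cox7a1 (22.9), Cox7a2 (542, next 328), Cox7a2l (439), Ndufaf1 (48.7), Ndufb9 (245), Ndufc1 (658, next 379) and Sdha (507, next 388). It also stood high for the sum of complex III (1413 CPM, next 1097) and of all members (16216 CPM, next 13927). Mouse 4 of Gne+/- was low for Ndufb5 (72.1 CPM). Of the wildtype libraries, mouse 6 was low for Cox6a1 (210 CPM, next 312) and Cox7b (334 CPM, next 612), and mouse 2 was low for Cox4i2 (5.5 CPM) and high for Ndufb3 (129 CPM, next 42.6). In C3-/-, mouse 1 was high for Atp5j (11.8 CPM) and mouse 5 for Cox7b2 (2.57 CPM). In Gne+/- C3-/-, mouse 4 was low for Ndufb2 (268 CPM, next 284).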

How the results depend on the processing

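Of 682 recomputed counts of called members 663 kept to their value within 1.5 times. Without a filter on low counts, edgeR called 1 member in Gne+/- against wildtype (Ndufb3; 4 within run 1, 1 within run 2, 1 for the difference between runs), 1 in C3-/- against wildtype (Cox8a; 3, 1 and 2), 3 in Gne+/- C3-/- against Gne+/- (Ndufb3, Ndufa1 and Cox7c; 3 within run 1, 3 for the difference) and 1 against wildtype (Ndufb3), beside 0.244%, 0.309%, 1.04% and 0.401% of the 29460 genes of those fits; the cause was not tested. DESeq2 called 1 member, Cox8b, within run 2 in Gne+/- and 1 in C3-/- against wildtype, and limma-voom 26 within run 1 in Gne+/- C3-/- against Gne+/-. Leaving out each library in turn gave 73 to 75 called members between the runs. Between genotypes it gave 0, except without wildtype mouse 8, where 1 wildtype library remains in run 2, assumed to vary like the others. In that fit the log2 difference of Ndufa9 within run 2 was 1.94 in Gne+/- and 2.03 in C3-/- against wildtype. With mouse number as a replicate block in place of run, 0 members were called in the 6 genotype comparisons; same-numbered mice correlated at -0.0578 to 0.267 (median 0.0106, 5 of 31 pairs over 0.1), so the numbers were not taken to pair them. Without a run term 0 members were called.

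Summed levels moved most with scaling by total counts alone, by construction of the scale. In run 2 these were, for wildtype, Gne+/-, C3-/- and Gne+/- C3-/-, 9156, 8104, 8989 and 9108 CPM over all members, 2600, 2171, 2472 and 2408 CPM for complex V and 445, 388, 429 and 454 CPM for complex II. Complex I stood at 3354 CPM in wildtype, 3433 with C3-/- alone and 3535 with both, complex III at 797 in wildtype and 785 in Gne+/- C3-/-, and complex IV at 1654 in Gne+/-, 1849 with C3-/- alone and 1925 with both alterations. In run 1, complex II stood at 524 CPM in wildtype and 547 in C3-/-, and all members at 15057 in Gne+/- C3-/-. With RLE size factors, run 2 complex II was 418 CPM in wildtype and 363 in Gne+/-, and complex III 716 in Gne+/- C3-/-. Run 2 rests on 2 or 3 mice a genotype, and members near 0 in run 1 have no usable depth there.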
